A study of Mus musculus with 7 samples.

Results

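The genes described here are 4 that carry the response to stress hormones, Nr3c1, Nr3c2, Fkbp5 and Crhr1, together with Ahi1, the gene named beside TET2 in the series' title. Their members were the 500 bp bins of the deposited count table whose start lay in a fixed span of the mouse build mm9. The 5 spans held 1376 of 5451548 bins: 162 for Nr3c1, 692 for Nr3c2, 178 for Fkbp5, 86 for Crhr1 and 258 for Ahi1. The count table names no genes, so the gene names rest on the spans. Each library was prepared from DNA of the hippocampus after capture with an antibody to 5hmC. All mice were of the C57BL/6 strain and unstressed, 3 libraries being wild type (WT) and 4 of the Tet2 CKO genotype, a knockout of the TET enzyme gene Tet2. Age, sex, the driver of the knockout and the cells it reaches are not given in the sources used here, nor is pooling of animals. No library came from stressed mice, so the comparison is of genotype only, and the Tet2 locus was not analysed here.

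5-hydroxymethylcytosine (5hmC) forms when TET enzymes oxidise 5-methylcytosine, and in neurons it is known to gather in the bodies of expressed genes and to be scarce at CpG-rich start sites. Corticosterone acts in the hippocampus through the mineralocorticoid receptor, encoded by Nr3c2, and the glucocorticoid receptor, encoded by Nr3c1. Both are ligand-activated transcription factors, and Fkbp5 encodes a co-chaperone that lowers the glucocorticoid receptor's affinity for hormone and is itself induced by it. Crhr1 encodes the main receptor for corticotropin-releasing hormone, and Ahi1 encodes a protein of the ciliary base that binds huntingtin-associated protein.

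Of the 5 genes, 4 had a promoter window in the RefSeq table used here, which covers 250 bases before and 50 after a gene start on GRCm38.p6. They are shown because the start end of each span was poor in reads, with CpG dinucleotides, the usual site of 5hmC, in capitals. The windows are chr8:76902080-76902379 (plus strand) for Nr3c2, chr17:28486100-28486399 (minus strand) for Fkbp5, chr11:104132531-104132830 (plus strand) for Crhr1 and chr10:20952297-20952596 (plus strand) for Ahi1. These coordinates belong to GRCm38.p6 and were not placed among the mm9 bins.
Nr3c2: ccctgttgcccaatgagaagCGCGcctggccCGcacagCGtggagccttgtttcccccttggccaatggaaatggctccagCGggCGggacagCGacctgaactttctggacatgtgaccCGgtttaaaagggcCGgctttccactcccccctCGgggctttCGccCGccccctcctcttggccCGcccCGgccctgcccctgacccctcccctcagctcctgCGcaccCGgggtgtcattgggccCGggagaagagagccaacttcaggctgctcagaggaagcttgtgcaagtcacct
Fkbp5: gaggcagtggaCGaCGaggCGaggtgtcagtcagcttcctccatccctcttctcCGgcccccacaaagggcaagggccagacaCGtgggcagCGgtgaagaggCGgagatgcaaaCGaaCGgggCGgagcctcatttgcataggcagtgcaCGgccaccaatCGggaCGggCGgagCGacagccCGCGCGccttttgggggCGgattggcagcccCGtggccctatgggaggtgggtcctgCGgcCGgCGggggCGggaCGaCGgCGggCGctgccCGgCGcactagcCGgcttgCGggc
Crhr1: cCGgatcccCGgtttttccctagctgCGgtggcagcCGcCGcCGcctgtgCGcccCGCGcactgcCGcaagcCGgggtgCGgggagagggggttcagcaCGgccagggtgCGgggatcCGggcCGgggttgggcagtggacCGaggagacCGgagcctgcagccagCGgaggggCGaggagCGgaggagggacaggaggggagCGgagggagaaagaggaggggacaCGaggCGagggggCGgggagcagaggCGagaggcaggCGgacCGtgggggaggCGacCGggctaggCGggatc
Ahi1: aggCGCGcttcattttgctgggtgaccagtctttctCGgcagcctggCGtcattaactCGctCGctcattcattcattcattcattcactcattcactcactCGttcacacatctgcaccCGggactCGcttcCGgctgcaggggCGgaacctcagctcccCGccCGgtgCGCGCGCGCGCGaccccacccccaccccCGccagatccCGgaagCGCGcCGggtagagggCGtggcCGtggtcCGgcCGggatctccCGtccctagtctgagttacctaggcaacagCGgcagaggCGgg
The Nr3c2 window held 17 CpG, that of Fkbp5 32, and those of Crhr1 and Ahi1 31 each, against a median of 7 over the 32851 promoter windows of the table. A second Ahi1 window of the table, further into the gene, held 3 CpG. Neither AGAACA nor its reverse complement TGTTCT, a core hexamer of the glucocorticoid response element, was found on either strand of these 5 windows, and 19% of all windows of the table held at least 1. No match says only that these letters are not in these windows.

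The 2 kb at the 5′ end of each span held few reads. Over the 7 libraries together, the 5′ 2 kb of Nr3c1 held 19 reads, where the median 2 kb stretch of the gene held 64. In Nr3c2 the 5′ 2 kb held 23 reads against a median of 79, and in Crhr1 44 against 110. In Ahi1 it held 31 reads against 110, and in Fkbp5 65 reads, 0.469 times the mean density of that gene. Counted from the lowest, the 5′ 2 kb ranked 4 of 40 stretches in Nr3c1, 6 of 173 in Nr3c2, 5 of 44 in Fkbp5, 1 of 21 in Crhr1 and 2 of 64 in Ahi1. In Nr3c2, Crhr1 and Ahi1 the 5′ 2 kb was below the mean density of the gene in all 7 libraries. In Nr3c1 and Fkbp5 this held in 6 of 7, the exceptions being Tet2 CKO replicate 3 with 13 reads in Nr3c1 and Tet2 CKO replicate 1 with 20 reads in Fkbp5. The stretch was chosen after its values were seen and was given no test, and the start sites themselves were not placed on mm9.

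Libraries held between 26134505 and 49414761 reads, of which 29.8% to 74.1% lay in 375 bins with a mean raw count above 100, called high-count bins here. None of those bins lay in the 5 spans. Outside them WT replicate 1 kept 29470058 reads and the other 6 libraries between 11846180 and 14929892. Among bins with 1 to 20 reads, between 73.1% and 83.7% held an even number, so single reads were not independent counts and counting error is larger than the read numbers imply. Tet2 CKO replicates 2 and 3 had the largest share of reads in high-count bins (69.8% and 74.1%) and fewer bins with a read in each of the 5 genes than the other 5 libraries. Genotype comparisons of the spans and ratios that move by over 1.5 times without these 2 libraries are given both ways. Levels are in CPM per kb, the usual depth-normalised read count divided by length, with each library's total scaled by its TMM factor (trimmed mean of M-values). Nothing in the labels says that the libraries came from separate animals, so a p-value here covers spread that may be technical only.

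Nr3c1 and Nr3c2, the genes of the corticosteroid receptors, were the least dense of the 5 in every library other than Tet2 CKO replicates 2 and 3, where Crhr1 was the lowest. Nr3c1 was covered by 816, 357 and 473 reads in the WT replicates 1, 2 and 3, and by 435, 258, 319 and 509 in the Tet2 CKO replicates 1 to 4. Its level was 0.158, 0.142 and 0.156 CPM per kb in WT and 0.168, 0.134, 0.158 and 0.175 in Tet2 CKO. The WT values lay within the Tet2 CKO range. In Nr3c2, the longest span at 346.0 kb, WT replicates 1 to 3 had 4286, 1905 and 2144 reads and Tet2 CKO replicates 1 to 4 had 2105, 1135, 1120 and 2311. Its level was 0.195, 0.177 and 0.166 CPM per kb in WT and 0.190, 0.138, 0.130 and 0.186 in Tet2 CKO. Tet2 CKO replicates 2 and 3 were the lowest, and replicates 1 and 4 lay within the WT range.

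Fkbp5 was the first or second densest gene in all 7 libraries, whereas Crhr1 ranked from first to last. In Fkbp5 the WT libraries had 0.380, 0.218 and 0.281 CPM per kb from 2148, 603 and 936 reads. The Tet2 CKO libraries had 0.308, 0.171, 0.229 and 0.231 CPM per kb from 876, 362, 508 and 740 reads. Only Tet2 CKO replicate 2 lay below all WT libraries. In Crhr1, the shortest span at 43.0 kb, the WT libraries had 0.432, 0.207 and 0.234 CPM per kb from 1181, 277 and 376 reads. The Tet2 CKO libraries had 0.228, 0.0882, 0.0896 and 0.278 CPM per kb from 313, 90, 96 and 430 reads. The low values were those of Tet2 CKO replicates 2 and 3, while replicates 1 and 4 lay within the WT range. Ahi1 had 0.253, 0.193 and 0.497 CPM per kb in WT, from 2073, 776 and 2398 reads, and 0.311, 0.141, 0.145 and 0.219 in Tet2 CKO, from 1283, 430, 465 and 1014 reads. WT replicate 3 was the highest and Tet2 CKO replicates 2 and 3 the lowest.

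**Figure D1:**
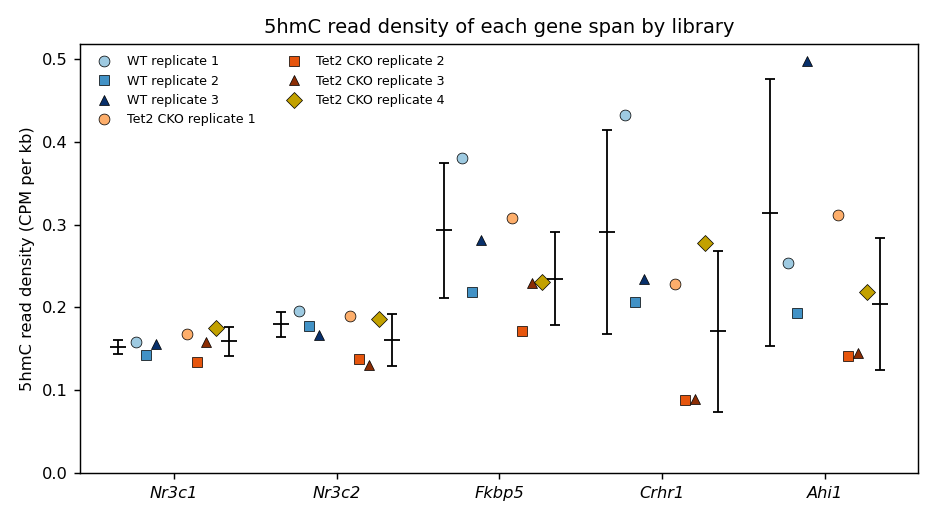
5hmC read density (CPM per kb, y axis) of each gene span (x axis), with a point per library, and the mean ± SD of 3 WT and 4 Tet2 CKO libraries as black bars. The points of Nr3c1 lie close together between 0.134 and 0.175, whereas Tet2 CKO replicates 2 and 3 sit at 0.0882 and 0.0896 in Crhr1 and WT replicate 3 at 0.497 in Ahi1.

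Set against the genome, all 5 genes had more reads per kb than the median autosomal 10 kb window in most libraries. The density of a span is a mean over its length, whereas the reference is a median of windows. A value above 1 therefore does not place a gene above the mean of the autosomes, and levels against that mean are not given here. Fkbp5 held between 1.40 and 2.81 times that median and Ahi1 between 1.15 and 3.38 times, above it in all 7 libraries. Nr3c2 lay between 1.04 and 1.44 times. Nr3c1 lay between 0.958 and 1.27 times, below the median in WT replicate 2. Crhr1 reached 3.19 times in WT replicate 1 and 1.89 in Tet2 CKO replicate 4, but stood at 0.722 and 0.720 in Tet2 CKO replicates 2 and 3. A bin with at least 1 read made up 51.9% to 66.7% of Nr3c1 in 5 libraries, and 25.3% and 41.4% in Tet2 CKO replicates 2 and 3. In Fkbp5 the corresponding values were 70.8% to 92.7%, and 41.6% and 56.7%.

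Ranked by the mean log2 reads per kb over the 7 libraries, the order was Fkbp5, Ahi1, Crhr1, Nr3c2 and Nr3c1. No neighbours in this order differed beyond their spread, over 4 comparisons within libraries. Fkbp5 exceeded Ahi1 by a mean of 0.14 on the log2 scale (SD 0.49, n = 7, higher in 5 of 7 libraries; p = 0.453 in a two-sided exact permutation of signs). Ahi1 exceeded Crhr1 by 0.24 (SD 0.66, 4 of 7; exact permutation of the signs, p = 0.375) and Crhr1 exceeded Nr3c2 by 0.22 (SD 0.63, 5 of 7; p = 0.406). Nr3c2 exceeded Nr3c1 by 0.10 (SD 0.20, 6 of 7; exact permutation p = 0.203), and by 0.17 without Tet2 CKO replicate 3 (exact permutation p = 0.0312). That library was the only one with Nr3c1 above Nr3c2. Leaving it out therefore fixes the p at 0.0312, the smallest that 6 libraries allow. The smallest p that permuting the signs of 7 libraries allows is 0.0156. The bins held by 1 library are described below for Ahi1. With them left out, Fkbp5 exceeded Ahi1 by 0.37 with all 7 libraries in that order (exact permutation of the signs, p = 0.0156, the smallest possible). This rule, set after the data were seen, took 6.59% of the Ahi1 bins and 1.12% of the Fkbp5 bins. The bins taken held 50.4% and 33.6% of the Ahi1 reads in WT replicate 3 and Tet2 CKO replicate 1. Those were the libraries with Ahi1 above Fkbp5, so this p is no test of the order. CpG content and how well reads can be placed in each span were not examined.

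Ahi1 held bins with reads almost all from a few libraries. A bin was called held by 1 library if its highest library had at least 20 raw reads and at least 10 times the median of the 7 libraries. The highest library and the 10 times were taken relative to each library's reads outside the high-count bins. This rule was set after the data were seen. Such bins made up 17 of the 258 bins of Ahi1 (6.59%), against 0.659% of all bins outside the high-count bins. There were 4 of 692 in Nr3c2, 2 of 178 in Fkbp5, 1 of 86 in Crhr1 and 0 of 162 in Nr3c1, and WT replicate 1 was the highest library in each of these 7. Over the genome it was the highest in 26417 of 35950 such bins. In Ahi1 it was WT replicate 3 in 13 of 17 and WT replicate 1 in the other 4.

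Those 13 bins lay between 7.5 and 102.5 kb from the 5′ end of the span, 12 of them starting within 48.5 kb of it. The highest, at chromosome 10, 20679501 to 20680000, had 286 reads in WT replicate 3 and 14 and 10 in WT replicates 1 and 2. In Tet2 CKO replicates 1 to 4 it had 82, 16, 2 and 37 reads. The bin at 20699001 to 20699500 had 170 reads in WT replicate 3 and 4 in each of WT replicates 1 and 2. It had 100, 2, 4 and 14 reads in Tet2 CKO replicates 1 to 4. WT replicate 3 was high in both bins, followed by Tet2 CKO replicate 1. Tet2 CKO replicate 1 was the second highest library, relative to its reads, in 12 of the 13 bins.

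Together the 13 bins held 1196 reads in WT replicate 3, 49.9% of that library's Ahi1 reads. Tet2 CKO replicate 1 had 428 reads (33.4%) there and replicate 4 of the same genotype 175 (17.3%). WT replicates 1 and 2 had 71 and 48 reads there, and Tet2 CKO replicates 2 and 3 had 23 and 13. Outside these bins the Ahi1 level was 0.257, 0.191 and 0.263 CPM per kb in WT and 0.218, 0.140, 0.148 and 0.191 in Tet2 CKO. WT replicate 3 then lay close to WT replicate 1. The bins were picked as highest in WT replicate 3, so leaving them out lowers that library by the choice itself. Over the genome, 574 bins were held by WT replicate 3. The 100 kb windows across Ahi1 held 8 and 5 of them, and no other 100 kb window of the genome held more than 2. Whether the 13 bins fall on exons was not examined, since no mm9 annotation was used here.

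**Figure D2:**
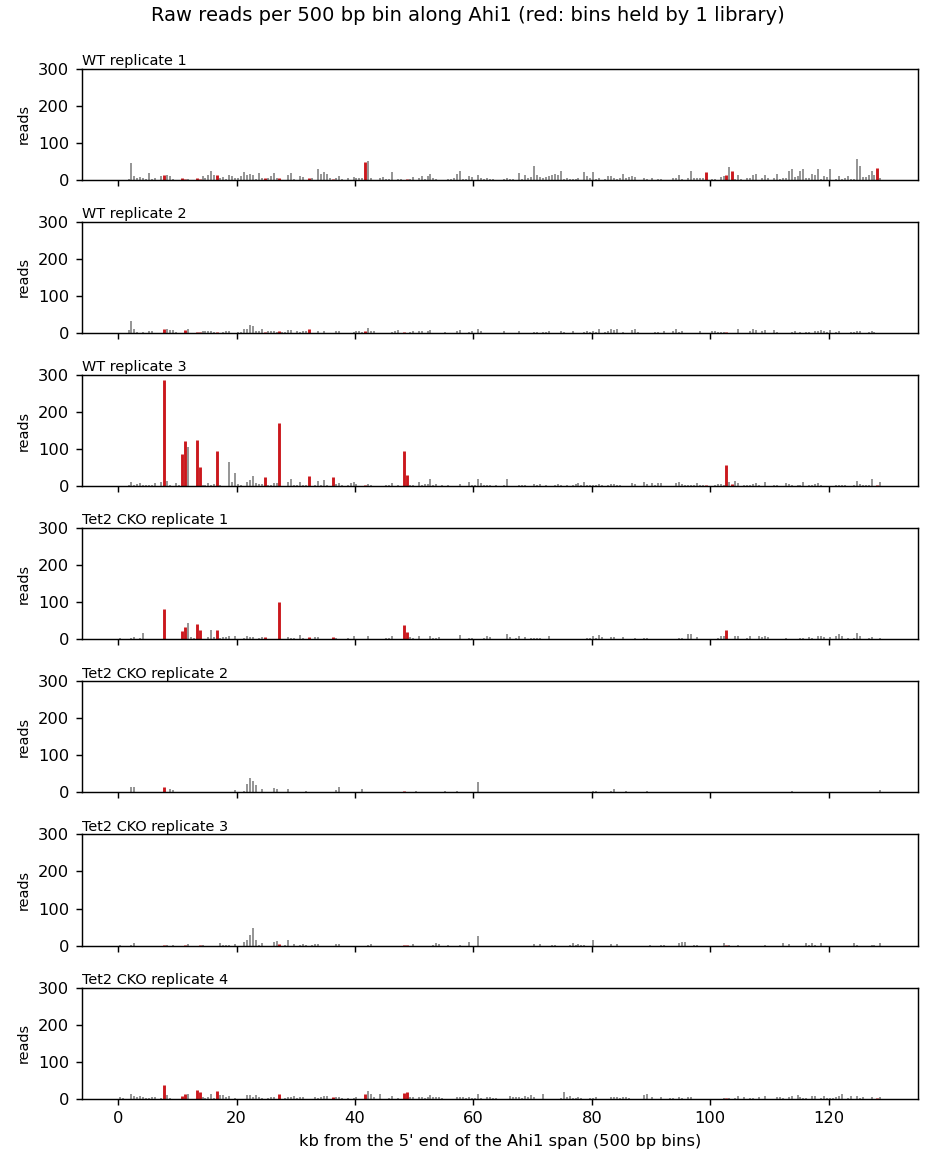
Raw reads per 500 bp bin (y axis) along the Ahi1 span (x axis, kb from its 5′ end), with a panel per library and red bars for the 17 bins held by 1 library. The bar near 7.5 kb reaches 286 reads in WT replicate 3 and 82 in Tet2 CKO replicate 1, and the bar of 170 reads in WT replicate 3 has 100 and 14 reads in Tet2 CKO replicates 1 and 4.

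Setting the genotypes side by side asks whether loss of Tet2 changes 5hmC in these genes. No span passed the threshold, an adjusted p under 0.05 in edgeR's quasi-likelihood test over 253983 rows (all tested 10 kb windows and the 5 spans). The groups overlapped in all 5 genes. Nr3c1 had 0.152 ± 0.00922 CPM per kb in WT (SD, n = 3), and the Tet2 CKO level was 0.159 ± 0.0177 (SD, n = 4). Its log2 fold change was 0.06 (SE 0.57, edgeR adjusted p = 0.962). Nr3c2 had 0.179 ± 0.0147 and 0.161 ± 0.0314 (log2 fold change -0.15, SE 0.68, edgeR adjusted p = 0.917). Fkbp5 had 0.293 ± 0.0817 and 0.235 ± 0.0559 (log2 fold change -0.32, SE 0.62, edgeR adjusted p = 0.800). Ahi1 had 0.314 ± 0.161 and 0.204 ± 0.0801 (log2 fold change -0.63, SE 0.67, edgeR adjusted p = 0.627). With the bins held by 1 library left out the Ahi1 value was -0.41, and without WT replicate 3 it was -0.13. Without Tet2 CKO replicates 2 and 3 the log2 fold change was 0.17 for Nr3c1, 0.06 for Nr3c2, -0.13 for Fkbp5 and -0.25 for Ahi1. In bulk tissue, a change in the mix of cells and a change in 5hmC per cell cannot be told apart.

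Crhr1 had the lowest ratio, with 0.291 ± 0.123 CPM per kb in WT (SD, n = 3) against 0.171 ± 0.0970 for Tet2 CKO (SD, n = 4). Its log2 fold change was -0.77 (SE 0.62, edgeR adjusted p = 0.521), and -0.21 without Tet2 CKO replicates 2 and 3. It was -0.36 without WT replicate 1. With the replicate number as a block it was -1.18 (SE 0.40) and past the threshold (edgeR adjusted p = 0.0365) in a fit that called 22.1% of all 10 kb windows. Number 4 occurs in Tet2 CKO only, so Tet2 CKO replicate 4 adds nothing to the genotype difference in any fit with the block. Without that library and without a block the Crhr1 value was -1.10 (edgeR adjusted p = 0.303). The other 4 spans were not past the threshold with the block. No span had an unadjusted p under 0.05 without the block, and DESeq2 put none past the threshold with either dispersion trend. Under scaling by library size alone all 5 log2 fold changes were below 0, between -0.45 for Nr3c1 and -1.13 for Crhr1, where the median of all windows moved from 0.01 to -0.52.

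**Figure D3:**
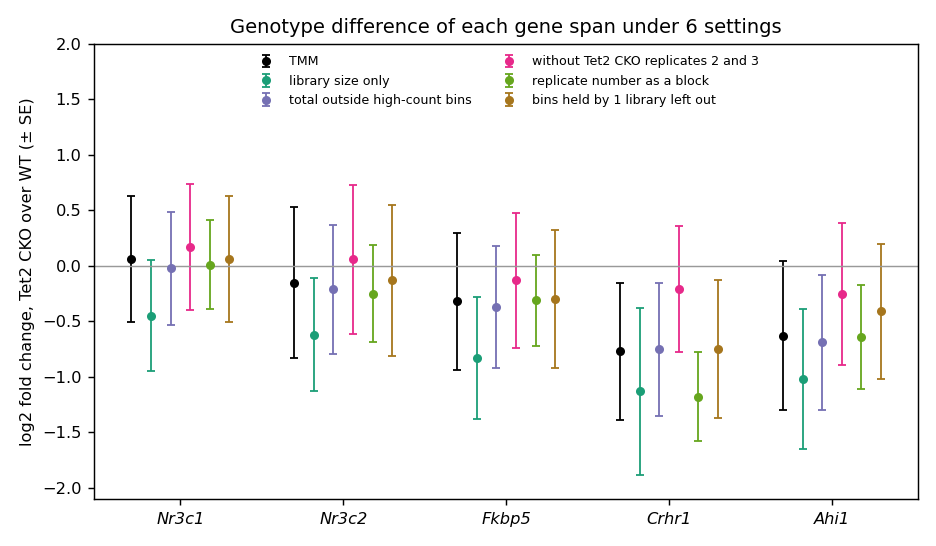
Log2 fold change of each gene span, Tet2 CKO over WT (y axis, ± SE), for the 5 genes (x axis) under 6 settings of scaling, libraries, pairing and bins. Crhr1 lies at -0.77 with TMM scaling, -1.18 with the block and -0.21 without Tet2 CKO replicates 2 and 3, and Nr3c1 stays within 1 SE of 0 under each of these 6 settings.

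The spans covered 70 windows of 10 kb, all of which passed the filter on low counts: 8 of Nr3c1, 35 of Nr3c2, 9 of Fkbp5, 5 of Crhr1 and 13 of Ahi1. edgeR called 0 of them at adjusted p under 0.05, as it did for 0% of the 253978 windows tested. At unadjusted p under 0.05 there were 2 windows (2.86%), both lower in Tet2 CKO, against 13.5% of all windows in either direction, 3.72% lower and 9.76% higher. The 2 became 0 without WT replicate 1 (2.81% of all windows) and 1 without WT replicate 3 (9.85%), Tet2 CKO replicate 2 (6.08%) or Tet2 CKO replicate 3 (5.50%). They became 7, or 10%, without Tet2 CKO replicate 1 and 6, or 8.57%, without Tet2 CKO replicate 4, where the shares of all windows were 23.8% and 22.3%. DESeq2 with a local trend also called 0 of 70, against 0.107% of all windows (0.0945% higher and 0.0125% lower), with 5 (7.14%) at unadjusted p under 0.05 against 22.2% of all windows. With its default trend only 5 of the 70 received an adjusted p and 0 were called, against 30.6% of the windows that received one (29.4% higher and 1.16% lower). It put 3 (4.29%) at unadjusted p under 0.05, against 17.2% of all windows. The block called 9 of the 70 windows, 1 higher and 8 lower, against 12.6% higher and 9.57% lower over all windows. Those named below carry their adjusted p with the block.

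By direction alone, 56 of the 70 windows were lower and 14 higher in Tet2 CKO, with a median log2 fold change of -0.40 against 0.01 over all windows. Without Tet2 CKO replicates 2 and 3 the split was 37 lower and 33 higher and the median -0.01, against -0.03 over all windows. With scaling by library size alone 68 were lower and 2 higher, with a median of -0.77 against -0.52. In 4 windows (5.71%), 1 each in Nr3c2, Fkbp5, Crhr1 and Ahi1, the highest Tet2 CKO library was under the lowest WT library, against 5.05% of all windows. In 0 windows was the lowest Tet2 CKO library over the highest WT library, against 4.79% of all windows.

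The 2 windows at unadjusted p under 0.05 were in Nr3c2 and Ahi1. The Nr3c2 window (chromosome 8, 79740001 to 79750000) had 345, 64 and 60 reads in WT and 46, 14, 8 and 67 in Tet2 CKO. WT replicate 1 alone was high, and 79 of its reads came from the bin at 79745001 to 79745500. The log2 fold change was -1.51 (SE 0.58, edgeR adjusted p = 0.369), and -1.98 with the block (edgeR adjusted p = 0.00724). The Ahi1 window (chromosome 10, 20770001 to 20780000) had 181, 54 and 145 reads in WT and 88, 10, 11 and 24 in Tet2 CKO. Tet2 CKO replicate 1 lay within the WT range and the other 3 below it (log2 fold change -1.38, SE 0.59, edgeR adjusted p = 0.369; 0.0251 with the block). It holds the bin at 20774501 to 20775000, 1 of the 13 above, with 56 reads in WT replicate 3.

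Within Nr3c1 the reads of Tet2 CKO replicates 2 and 3 were gathered in a single window. At chromosome 18, 39590001 to 39600000, about 51 to 61 kb from the 5′ end of the span, 125, 78 and 99 reads were counted in the WT replicates 1 to 3, and Tet2 CKO replicates 1 to 4 had 80, 170, 174 and 116. This was 15.3% to 22.8% of the gene's reads in 5 libraries, but 65.9% and 54.5% in Tet2 CKO replicates 2 and 3, for 12.3% of the span's length. The groups overlapped, and the log2 fold change of 1.06 was not past the threshold (SE 0.56, edgeR adjusted p = 0.374; 0.0441 with the block, where 12.6% of all windows were called higher). Its densest bin, at 39592001 to 39592500, had 14, 12 and 14 reads in WT and 12, 44, 58 and 17 in Tet2 CKO. The lowest window of Nr3c1, at 39600001 to 39610000, lay directly beside it, with 43, 25 and 24 reads in WT and 15, 5, 22 and 50 in Tet2 CKO.

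A like pattern was seen in Ahi1. Its highest window by mean level (chromosome 10, 20690001 to 20700000) had 180, 124 and 417 reads in WT and 167, 158, 162 and 84 in Tet2 CKO. It held 36.7% and 34.8% of the gene's reads in Tet2 CKO replicates 2 and 3 and 8.28% to 17.4% in the others. In WT replicate 3, 170 of its 417 reads came from the bin at 20699001 described above. The lowest window of Ahi1, 20760001 to 20770000, had 76, 29 and 88 reads in WT and 60, 12, 36 and 52 in Tet2 CKO. In Nr3c2 the highest window by mean level, at chromosome 8, 79700001 to 79710000, held between 4.70% and 7.84% of the reads in each library. It was the highest only in WT replicate 3 and Tet2 CKO replicate 4. In Tet2 CKO replicates 2 and 3, 94 and 97 of the gene's 1135 and 1120 reads lay at 79470001 to 79480000. These 2 libraries had 115 and 91 reads at 79590001 to 79600000, and 84 and 109 at 79660001 to 79670000. At 79470001 the WT libraries had 79, 75 and 63 reads and Tet2 CKO replicates 1 and 4 had 59 and 45, of 4286, 1905, 2144, 2105 and 2311 reads in the gene. The window at 79700001 had 3.50 ± 0.244 CPM in WT (SD, n = 3) against 3.51 ± 0.395 for Tet2 CKO (SD, n = 4). The window at 79470001 had 1.78 ± 0.588 and 2.74 ± 1.39 CPM. The lowest window of Nr3c2 was the first, at 79420001 to 79430000, with 0.903 ± 0.146 and 0.728 ± 0.334 CPM. The densest bin of Nr3c2, at 79470001 to 79470500, had 12, 20 and 18 reads in WT and 20, 19, 25 and 14 in Tet2 CKO.

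**Figure D4:**
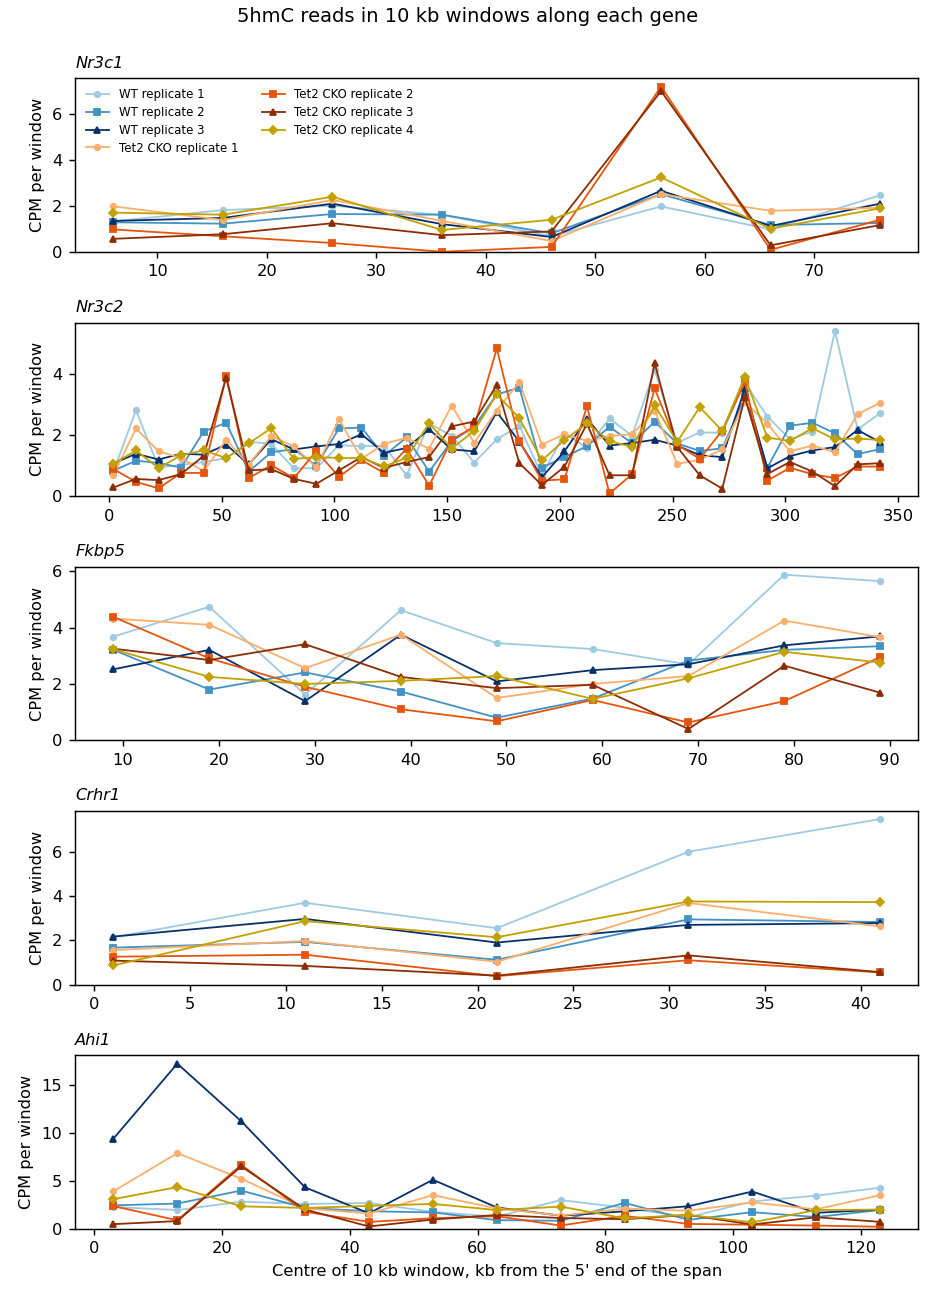
5hmC level (CPM per window, y axis) in 10 kb windows along the 5 genes (x axis, kb from the 5′ end of the span), with a line per library. In Nr3c1 the lines of Tet2 CKO replicates 2 and 3 rise above all others at the window of 170 and 174 reads, and in Ahi1 WT replicate 3 stands above the other lines in the first windows.

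In Crhr1 the Tet2 CKO mean was below the WT mean in all 5 windows, and Tet2 CKO replicates 2 and 3 were below all WT libraries in each. The window at the 3′ end (chromosome 11, 104030001 to 104040000) gave the smallest p, with 476, 88 and 104 reads in WT and 84, 13, 14 and 134 in Tet2 CKO (log2 fold change -1.22, SE 0.65, edgeR adjusted p = 0.377; 0.00723 with the block). Tet2 CKO replicate 4 was above WT replicates 2 and 3 there. Of that window's 20 bins 14 started in the span, and its counts include the others. The highest window by mean level, at 104020001 to 104030000, had 382, 92 and 101 reads in WT and 118, 26, 33 and 135 in Tet2 CKO. The lowest, at 104010001 to 104020000, had 162, 35 and 71 reads in WT and 33, 9, 10 and 77 in Tet2 CKO (edgeR adjusted p = 0.419; 0.0137 with the block). The densest bin, at 104024501 to 104025000, had 39, 10 and 12 reads in WT and 16, 6, 18 and 32 in Tet2 CKO.

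In Fkbp5 the balance between the ends of the gene differed by library. Each gene was divided into 3 equal lengths, and the density of the length at the 5′ end was set over that at the 3′ end. In Fkbp5 this ratio was 0.770, 0.751 and 0.852 in WT and 1.20, 2.48, 1.71 and 0.952 in Tet2 CKO. The groups did not overlap, and replicates 2 and 3 were again the farthest from WT. The mean log2 ratio was -0.34 ± 0.10 in WT (SD, n = 3) against 0.57 ± 0.60 for Tet2 CKO (SD, n = 4; p = 0.0571 in a two-sided exact permutation test of the 35 splits, with 0.0286 the smallest possible). The difference of 0.91 was 0.43 without Tet2 CKO replicates 2 and 3. The window with the highest mean over the 7 libraries, 3.51 CPM, lay toward the 5′ end, at chromosome 17, 28610001 to 28620000, with 234, 100 and 94 reads in WT and 138, 104, 81 and 116 in Tet2 CKO. Its mean was 3.14 ± 0.586 CPM in WT (SD, n = 3) against 3.79 ± 0.642 for Tet2 CKO (SD, n = 4), and its first bin, 28610001 to 28610500, was the densest of the gene. The windows at the 3′ end, 28530001 to 28540000 and 28540001 to 28550000, came close, with 3.39 and 3.41 CPM over the 7 libraries, and were the higher in WT with means of 4.23 ± 1.24 and 4.16 ± 1.5 CPM (SD, n = 3). Of the 20 bins counted in the window at 28530001, 10 started in the span. The lowest window, 28570001 to 28580000, had 219, 25 and 78 reads in WT and 48, 16, 46 and 82 in Tet2 CKO. Toward the 3′ end, the window at 28550001 to 28560000 had 171, 88 and 101 reads in WT and 73, 15, 10 and 79 in Tet2 CKO, every Tet2 CKO library being lower in CPM (log2 fold change -0.97, SE 0.54, edgeR adjusted p = 0.386; -1.58 and 0.0181 with the block).

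In no gene, Fkbp5 included, was the exact permutation p of this ratio under 0.05. The other genes also had overlapping groups in the same ratio. In Nr3c1 it was 0.868, 0.823 and 0.773 in WT and 0.926, 0.241, 0.262 and 0.769 in Tet2 CKO (exact permutation p = 0.314), a log2 difference of -0.83 that was 0.04 without Tet2 CKO replicates 2 and 3. In Nr3c2 all 7 libraries had less at the 5′ end, at 0.504 to 0.848 times the 3′ end (exact permutation p = 0.886). In Ahi1 the 5′ end was the denser in 6 of 7 libraries, at 0.896, 1.90 and 4.05 times in WT and 1.92, 6.98, 2.45 and 2.12 times in Tet2 CKO (exact permutation p = 0.400), a log2 difference of 0.60 that was 0.08 without Tet2 CKO replicates 2 and 3. In Crhr1 it was 0.410, 0.627 and 1.10 in WT and 0.534, 1.08, 0.683 and 0.424 in Tet2 CKO (exact permutation p = 0.971), a log2 difference of -0.04 that was -0.46 without them.

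Each gene was also set against the 100 kb on either side, a ratio that needs no scaling between libraries. The flanks can hold other genes. Ahi1 stood above its flanks in all 7 libraries, at 1.45, 1.21 and 3.11 times in WT and 2.03, 1.39, 1.39 and 1.62 times in Tet2 CKO (exact permutation test, two-sided, p = 0.743). The log2 difference of -0.15 was 0.05 without Tet2 CKO replicates 2 and 3. Nr3c1 was at 0.713, 0.984 and 0.971 times its flanks in WT and 1.09, 1.95, 2.39 and 0.985 times in Tet2 CKO. The groups did not overlap, by a narrow margin between WT replicate 2 and Tet2 CKO replicate 4, and the difference in mean log2 ratio of 0.77 was not past the threshold (exact permutation p = 0.143). It was 0.54 without Tet2 CKO replicate 3 and 0.24 without both replicates 2 and 3. In Tet2 CKO replicates 2 and 3 the Nr3c1 flanks held 1.63 and 1.65 reads per kb, against 4.48 to 14.1 in the other libraries.

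Crhr1 was at 1.19, 0.812 and 1.11 times its flanks in WT and 0.868, 0.639, 0.647 and 1.16 times in Tet2 CKO (exact permutation p = 0.314), a log2 difference of -0.35 that was -0.03 without replicates 2 and 3. Nr3c2 was at 0.836, 1.03 and 1.07 times in WT and 1.16, 0.708, 0.654 and 1.18 times in Tet2 CKO (exact permutation p = 0.657), where -0.12 became 0.27 without them. Fkbp5 was at 0.795, 0.752 and 1.09 times in WT and 1.01, 0.761, 0.882 and 0.819 times in Tet2 CKO (exact permutation p = 1), where -0.01 became 0.07. Over the 5 genes, the flank ratio, the ratio of the ends and the density relative to the autosomes gave 15 comparisons of genotype, of which 0 had p under 0.05. The lowest p was the 0.0571 of Fkbp5. Relative to the autosomes, the log2 difference went from -0.79 to -0.17 in Crhr1, from -0.50 to -0.19 in Ahi1, from -0.22 to -0.14 in Fkbp5 and from -0.08 to 0.03 in Nr3c2 when Tet2 CKO replicates 2 and 3 were left out.

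**Figure D5:**
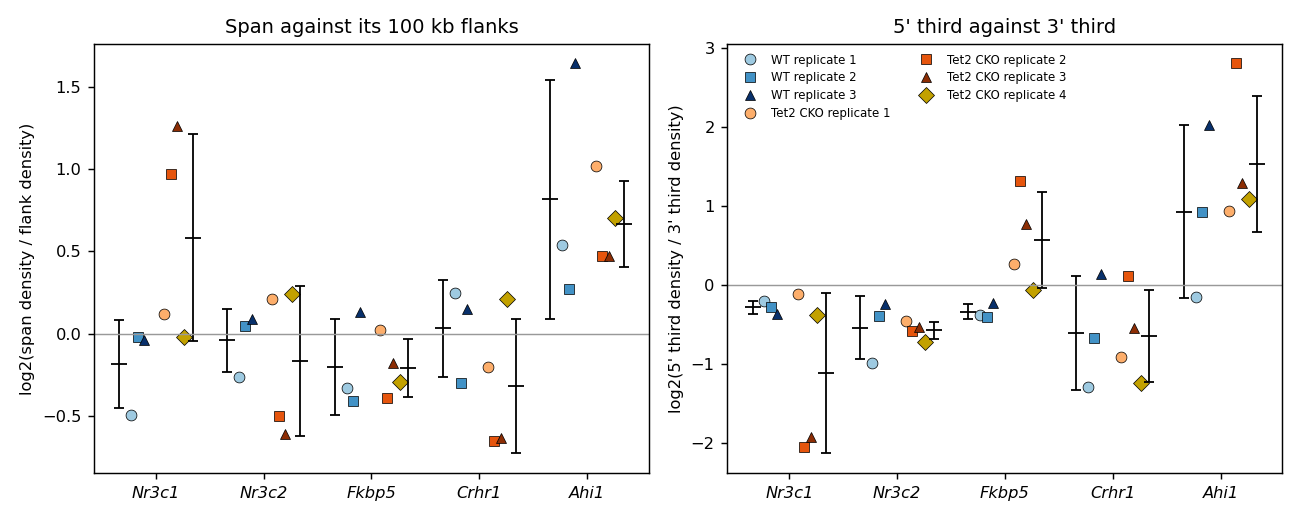
Log2 ratios within each library for the 5 genes (x axis): span density over that of the 100 kb flanks (left, y axis) and the density at the 5′ end over that at the 3′ end (right, y axis), with a point per library and the mean ± SD of 3 WT and 4 Tet2 CKO libraries. On the right, the 4 Tet2 CKO points of Fkbp5 lie above the 3 WT points, whose mean is -0.34, and on the left Ahi1 lies above 0 in all 7 libraries.

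The shape of the profile along a gene was shared to differing degrees. Across the 35 windows of Nr3c2, log2(CPM + 0.5) correlated between Tet2 CKO replicates 2 and 3 at r = 0.740. The median r was 0.470 among the other 5 libraries and 0.488 between these 2 and the other 5. By the median alone, the 2 were in Nr3c2 no less like the others than those were among themselves. The lowest r was 0.323 among the other 5, and 0.072 for WT replicate 1 with Tet2 CKO replicate 2. In Nr3c1, over 8 windows, the r of the 2 and the medians, in the same order, were 0.869, 0.728 and 0.667. In Ahi1, over 13 windows, they were 0.643, 0.387 and 0.260. In Fkbp5, over 9 windows, they were 0.611, 0.581 and 0.210, and in Crhr1, over 5 windows, 0.855, 0.783 and 0.322. These r values run across neighbouring windows of the same libraries and are a description only. Of the 1376 bins, 65 passed the filter on low counts. edgeR called 0 of the 65, with 3 at unadjusted p under 0.05, all lower in Tet2 CKO, 2 in Fkbp5 and 1 in Ahi1, against 7.57% of all bins tested in either direction, 5.77% lower and 1.8% higher. No other tool was run on single bins.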

How the data were processed

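5hmC was measured by antibody enrichment and sequencing on Illumina machines, per the labels' protocols. The authors deposited raw read counts per 500 bp bin, not normalized. The submitters' processing notes name Bowtie2, HOMER and DESeq2 and the build mm9. What each tool did, its version and how duplicate reads were treated are not given in the sources used here. No input library was analysed here. Members and lists were chosen with earlier results of these data known.

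Bins were summed by start into the 5 spans and into 10 kb windows. A window belonged to a gene when at least 10 of its 20 bins started in the span. Window counts include all bins of the window, so windows at the ends of a span can hold reads from outside it. Rows with a mean count of at least 10 entered edgeR 4.0.16 under R 4.3.3 (TMM, quasi-likelihood, genotype only, two-sided, Benjamini-Hochberg over all rows), with DESeq2 1.42.0 as an alternative. The SE was taken from the F statistic. Ratios within libraries were compared by exact permutation tests with Python 3.11.15, numpy 2.4.6 and pandas 2.3.3. Fits were tested on simulated counts, drawn independently with a single fixed spread. These lack the even counts and the differing Tet2 CKO libraries described above, so they do not show how the fits behave on these data. Of each gene, the windows with the highest and lowest mean level and the smallest p, and the bin with the highest mean level, were to be named. Strand came from the RefSeq promoter table, and from general knowledge for Nr3c1, which has no row there. A list of other stress pathway genes was planned and not run, because no mm9 annotation was used here. Likeness of genes across libraries was planned as a description and is not given here.

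Replicate numbers 1 to 3 occur in both genotypes in the labels, which say nothing of what a number shares. Number 4 occurs in Tet2 CKO only, so the block takes no genotype difference from that library. After subtracting each group's mean profile over 10 kb windows, same-numbered libraries correlated at 0.574, 0.329 and 0.367, above the criterion of 0.1, so the replicate block is given where it changes a call. Libraries with different numbers correlated too: 0.536 for WT replicate 1 and Tet2 CKO replicate 4, and 0.387 between the third WT library and the second Tet2 CKO library.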

Additional observations from a re-analysis of the deposited data

How the results depend on the processing

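No genotype difference of a span, window or ratio was past its threshold in the analyses without a replicate block. Most changes below are therefore of sign in values near 0, and the cause was not tested. The Nr3c1 span had a log2 fold change of -0.45 with library size only and -0.02 with the total outside high-count bins, and the Nr3c2 span 0.06 without Tet2 CKO replicates 2 and 3. With the replicate block, Crhr1 was past the threshold at -1.18, 9 windows were called and 16 of 70 (22.9%) had an unadjusted p under 0.05, against 36.4% of all windows. The number at unadjusted p under 0.05 was 0 without Tet2 CKO replicates 2 and 3 (3.41% of all windows), 5 in DESeq2 with a local trend (22.2% of all windows), and 0 to 7 with each library left out.

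For the span to flank ratio, the log2 difference became 0.03 with flanks of 50 kb and 0.27 without Tet2 CKO replicates 2 and 3 for Nr3c2. For Fkbp5 it became 0.07 with flanks of 200 kb, 0.00082 without bins of a mean above 20, 0.07 without Tet2 CKO replicates 2 and 3 and 0.02 in the replicate block. For Ahi1 it became 0.01 without bins held by 1 library and 0.05 without Tet2 CKO replicates 2 and 3. Relative to the autosomes, Nr3c1 became -0.02 against the mean and Nr3c2 0.03 without Tet2 CKO replicates 2 and 3. For the ends of the gene, Nr3c1 became 0.04 without Tet2 CKO replicates 2 and 3, Nr3c2 0.03 with the gene split at its midpoint and 0.01 in the block, and Crhr1 0.11 with the gene split at its midpoint and 0.16 in the block. The block changed no other call of a span. For the ratios the block was a permutation of signs over the same-numbered pairs 1 to 3. The smallest p which that allows is 0.25, so it could not change a call of a ratio. Without bins held by 1 library the excess of Fkbp5 over Ahi1 was 0.37, with a p under 0.05 in the permutation of signs. Those bins held a larger share of the Ahi1 reads in the libraries of the opposite order, so this p is no test of the order. Without Tet2 CKO replicate 3, the only library of the opposite order, that of Nr3c2 over Nr3c1 was 0.17, also with a p under 0.05.

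With each library left out, the flank difference ran from -0.26 to 0.03 for Nr3c2, -0.11 to 0.16 for Fkbp5 and -0.42 to 0.26 for Ahi1. The difference relative to the autosomes ran from -0.16 to 0.02 for Nr3c2 and -0.44 to 0.02 for Fkbp5, and that of the ends from -0.26 to 0.11 for Nr3c2 and -0.38 to 0.34 for Crhr1. The excess of Nr3c2 over Nr3c1 ran from 0.07 to 0.17. The span log2 fold changes ran from 0.01 to 0.13 for Nr3c1, -0.24 to -0.07 for Nr3c2, -0.50 to -0.09 for Fkbp5, -1.10 to -0.36 for Crhr1 and -0.90 to -0.13 for Ahi1. The rule for bins held by 1 library was chosen after seeing the data.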
